A study of Mus musculus with 30 samples.

Results

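Oligodendrocyte precursor and myelin genes, 9 in all, were read in mouse brain: 4 that mark oligodendrocyte precursors (Gpr17, Pdgfra, Cspg4 and Olig2) and 5 that encode proteins of the myelin sheath (Mbp, Mog, Mag, Mobp and Cnp). They are 9 of the 16593 genes named on the Illumina arrays used, and their 15 probes (4 for precursor genes, 11 for myelin genes) are all the probes annotated to these symbols among 25697. The genes were picked because Gpr17 was already known to be lower and some myelin genes higher in the older brains of these data. Their brain differences are therefore given as a description, with standard errors and without p-values.

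Brain, kidney and heart came from the same 10 male wild-type C57BL/6JRj mice, with 1 array for each tissue of each mouse. The groups were 4 rapamycin-treated mice aged 25 months (rapamycin inhibits the growth-regulating kinase mTOR), 2 controls aged 25 months, and 4 controls aged 25 weeks. Rapamycin was started at 13 months of age and continued for more than 12 months, and mice had been allotted at random to the drug or its vehicle. The sample titles marked the 25-month controls as young, against the stated age and source name, which were followed here.

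Myelin is the layered membrane with which oligodendrocytes insulate axons in the central nervous system. Oligodendrocytes arise from precursors that persist in the adult brain, divide slowly and carry the receptor Pdgfra and the proteoglycan encoded by Cspg4. A precursor that starts to differentiate switches on the receptor Gpr17 for a limited time, then shuts it off as the myelin genes come on. In the mouse, forced expression of Gpr17 holds cells back from making myelin.

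The promoters of 3 myelin genes are shown first, because these genes differed in how their probes behaved between the groups and in one short sequence. Each is the 250 bases before the annotated start, 5′ to 3′ on the strand of the gene, from RefSeq on the GRCm38.p6 assembly: Mobp at chr9:120149492-120149741 on the plus strand, Cnp at chr11:100574689-100574938 on the plus strand and Mog at chr17:37023399-37023648 on the minus strand. The Cnp window runs past the start of the annotated gene span, 100574909, so its last bases lie inside that span. Capitals mark ACAAAG or its reverse complement CTTTGT, the core letters bound by SOX-family factors, a family that includes the myelination regulator Sox10.
Mobp: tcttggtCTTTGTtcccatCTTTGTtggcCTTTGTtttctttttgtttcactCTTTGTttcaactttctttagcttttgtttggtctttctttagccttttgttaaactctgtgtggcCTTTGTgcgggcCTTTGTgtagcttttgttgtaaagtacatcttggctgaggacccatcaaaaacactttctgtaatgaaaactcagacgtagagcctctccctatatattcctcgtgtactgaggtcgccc
Cnp: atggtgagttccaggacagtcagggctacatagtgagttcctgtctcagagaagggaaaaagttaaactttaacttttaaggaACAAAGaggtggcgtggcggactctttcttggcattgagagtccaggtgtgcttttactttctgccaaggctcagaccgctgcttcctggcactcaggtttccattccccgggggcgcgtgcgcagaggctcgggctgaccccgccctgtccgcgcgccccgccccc
Mog: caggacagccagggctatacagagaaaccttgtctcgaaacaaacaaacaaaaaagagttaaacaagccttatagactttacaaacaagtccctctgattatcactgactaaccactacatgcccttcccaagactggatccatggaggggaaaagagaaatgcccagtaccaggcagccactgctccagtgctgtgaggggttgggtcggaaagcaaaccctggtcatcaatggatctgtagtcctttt

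The Mobp window held 6 copies of these letters, all in the CTTTGT orientation on the strand of the gene, the Cnp window held 1 and the Mog window 0. At least 1 copy was found in 16.5% of the 32851 mouse promoters searched in the same way on both strands. Promoters on chromosome 18, where Gpr17 and Mbp lie, were not searched. The Mobp window was the only one of the 32851 with 6 or more. The letters ACAATG or CATTGT were in 10.7% of promoters and the E-box CAGCTG in 13%, and none of these motifs contains another. These matches describe letters in a window and say nothing about binding.

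Signals were background-corrected and quantile-normalised within each tissue and are given as log2 intensities, which compare 1 probe between arrays but not 1 probe with another. Each difference between groups is in log2 units with its standard error (SE) from limma, a linear model fitted to all 14473 brain probes tested. A probe was tested if at least 2 arrays of its tissue had a detection p below 0.05, and all 15 member probes passed in brain. A probe counts as called if its Benjamini-Hochberg adjusted p over all tested probes was under 0.05. From 12975 to 13562 probes were detected per brain array, 9989 to 12777 per kidney array and 11923 to 12686 per heart array. The lowest kidney count belonged to rapamycin mouse 2, whose kidney array also had a median correlation with the other kidney arrays of 0.878, so kidney results are given with and without it. As a check of the tissue, 6 of 10 neuron markers and 8 of 8 astrocyte markers were detected on all brain arrays, against 0 of 4 kidney markers and 0 of 3 heart markers. The complement gene C4b was 2.23 ± 0.12 higher in 25-month controls than in 25-week controls, the lysozyme gene Lyz2 1.70 ± 0.16 higher and the astrocyte filament gene Gfap 1.06 ± 0.16 higher (limma, adjusted p = 1.51e-06, 0.000172 and 0.00705), which fits the stated ages and not the titles. The Gfap call was lost without either 25-month control (adjusted p = 0.0653 and 0.0906). Age cannot be told apart from any other difference between these groups of mice. In bulk tissue, fewer cells of a type and less RNA per cell cannot be told apart.

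Gpr17, an orphan receptor of precursors committed to differentiation, was the precursor gene with the clearest group pattern. Its log2 signal was 6.85, 7.44, 6.88 and 7.20 in the rapamycin-treated mice, 7.14 and 6.94 in the 25-month controls, and 7.79, 7.68, 7.68 and 7.54 in the 25-week controls. All 6 arrays from 25-month mice lay below all 4 from 25-week mice, while the treated mice and the 25-month controls overlapped. The same separation held in the intensities before normalization, with 190.1, 282.5, 222.2 and 246.1 in the treated mice, 242.8 and 203.1 in the 25-month controls, and 335.9, 293, 283.2 and 320.3 in the 25-week controls, although the gap between 282.5 and 283.2 was narrow. Gpr17 was 0.645 times as high in 25-month as in 25-week controls, a log2 difference of -0.63 ± 0.15 with a 95% interval of -0.96 to -0.30. It was 0.669 times as high in rapamycin-treated mice as in 25-week controls, a difference of -0.58 ± 0.12. Without background correction these differences were smaller, at -0.40 and -0.36. Between rapamycin-treated mice and 25-month controls the difference was 0.05 ± 0.15. The 25-month controls enter 2 of these contrasts, so those differences are not independent of each other.

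The other 3 precursor genes did not share the pattern of Gpr17. Pdgfra, the growth factor receptor that drives precursor division, read 7.99, 8.17, 7.86 and 8.06 in treated mice, 7.99 and 7.99 in 25-month controls, and 7.87, 7.89, 7.88 and 7.98 in 25-week controls. Its 25-month controls lay just above the 25-week controls, by 0.08 ± 0.10, and its treated mice overlapped both groups. Cspg4, the NG2 proteoglycan of the precursor surface, read 5.77, 5.44, 5.48 and 5.52 in treated mice, 5.42 and 5.80 in 25-month controls, and 5.63, 5.81, 5.86 and 5.28 in 25-week controls. The 3 groups overlapped throughout, with differences of -0.06 ± 0.16 for rapamycin against 25-month controls, -0.04 ± 0.16 for 25-month against 25-week controls and -0.09 ± 0.13 for rapamycin against 25-week controls. Olig2, the transcription factor present across the whole lineage, read 4.82, 5.08, 5.13 and 5.28 in treated mice, 4.86 and 5.27 in 25-month controls, and 4.87, 4.72, 4.87 and 5.22 in 25-week controls. It was close to background, being detected on 3 of 4, 1 of 2 and 1 of 4 arrays in that order of groups, so its overlap carries little information. Across the 4 precursor genes the median difference was 0.02 with age, 0.02 for rapamycin against 25-month controls and 0.01 for rapamycin against 25-week controls, against medians over all probes of -0.0060, -0.0012 and -0.0079.

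**Figure D1:**
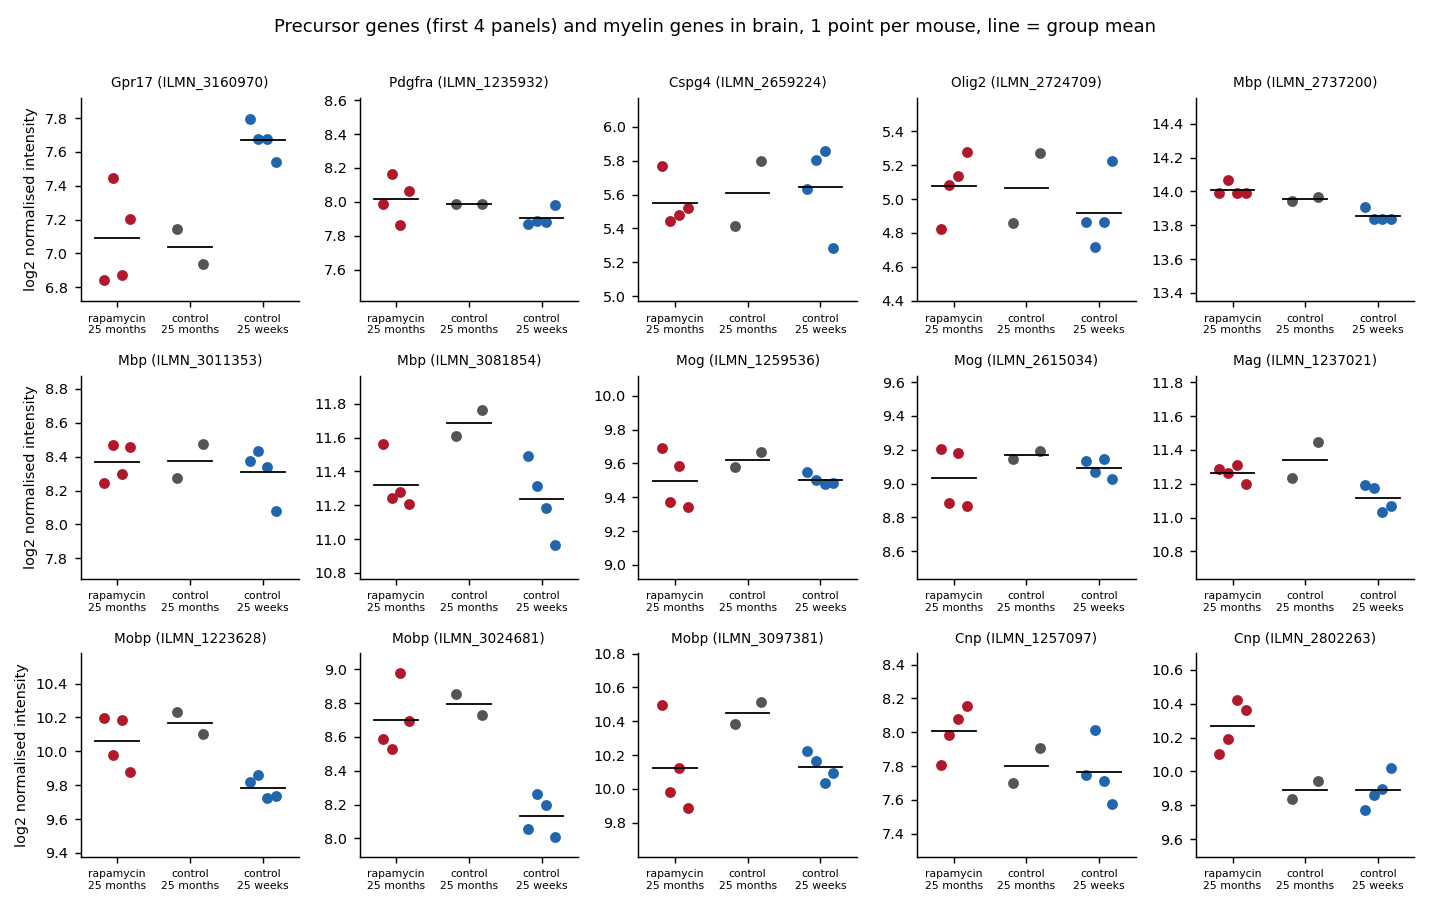
Log2 signal of each of the 15 member probes on every brain array, 1 panel per probe, with rapamycin-treated mice at the left, 25-month controls in the middle and 25-week controls at the right. The 6 points of the 25-month groups lie below the 4 points of the 25-week controls for Gpr17, and above them for 1 of 3 Mbp probes and 2 of 3 Mobp probes and for Mag.

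Among the myelin genes, Mobp, a small basic protein of the compact sheath, had the widest spread between ages. Probe ILMN_3024681 read 8.59, 8.53, 8.98 and 8.69 in treated mice, 8.85 and 8.73 in 25-month controls, and 8.06, 8.26, 8.20 and 8.01 in 25-week controls. Both 25-month groups lay wholly above the 25-week controls and overlapped each other. The signal was 1.58 times as high in 25-month as in 25-week controls (0.66 ± 0.13), and 1.48 times as high in treated mice as in 25-week controls (0.57 ± 0.10). Probe ILMN_1223628, annotated to another transcript of the gene, read 10.20, 9.98, 10.19 and 9.88 in treated mice, 10.23 and 10.11 in 25-month controls, and 9.82, 9.86, 9.72 and 9.74 in 25-week controls. Its groups were ordered in the same way, with differences of 0.38 ± 0.11 with age and 0.28 ± 0.09 for rapamycin against 25-week controls. Before normalization its groups overlapped, with 1046.8 in treated mouse 1 and 1103.1 in 25-week control 4. Probe ILMN_3097381, annotated to the same transcript as ILMN_3024681, read 10.49, 9.98, 10.12 and 9.89 in treated mice, 10.38 and 10.51 in 25-month controls, and 10.22, 10.16, 10.04 and 10.10 in 25-week controls. Here the 25-month controls again lay above the 25-week controls, by 0.32 ± 0.14, but 3 of the 4 treated mice fell among or below the 25-week values, and the difference of rapamycin from 25-week controls was -0.0083 ± 0.12. The 3 Mobp probes thus shared a direction with age and disagreed on the treated mice.

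Mbp encodes myelin basic protein, which binds the facing membranes of the sheath together. Probe ILMN_2737200 was the 10th brightest of all probes, so that quantile normalization nearly fixed its value by rank: it read 13.99, 14.07, 13.99 and 13.99 in treated mice, 13.94 and 13.97 in 25-month controls, and 13.91, 13.84, 13.84 and 13.84 in 25-week controls. All older arrays lay above all 25-week arrays, by 0.10 ± 0.08 for 25-month controls and 0.16 ± 0.07 for treated mice. When the arrays were only scaled to equal medians, these differences were 0.16 and 0.20. The unnormalised intensities overlapped, with 15321.3 in treated mouse 1 and 15911.8 in 25-week control 1. Probe ILMN_3081854 read 11.56, 11.24, 11.28 and 11.21 in treated mice, 11.61 and 11.77 in 25-month controls, and 11.49, 11.31, 11.18 and 10.97 in 25-week controls. The 2 control mice of 25 months stood above every other array, so that the signal was 1.37 times as high as in 25-week controls (0.45 ± 0.14), and 0.775 times as high in treated mice as in 25-month controls (-0.37 ± 0.14). Probe ILMN_3011353, annotated to the same transcript, read 8.24, 8.47, 8.30 and 8.46 in treated mice, 8.27 and 8.48 in 25-month controls, and 8.37, 8.44, 8.34 and 8.08 in 25-week controls. Its groups overlapped, so the 3 Mbp probes did not give 1 pattern.

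Mag, an adhesion protein of the innermost myelin layer that contacts the axon, read 11.29, 11.26, 11.31 and 11.20 in treated mice, 11.23 and 11.44 in 25-month controls, and 11.19, 11.17, 11.03 and 11.07 in 25-week controls. All older arrays lay above the 25-week arrays, by a small margin: 0.22 ± 0.09 with age and 0.15 ± 0.08 for rapamycin against 25-week controls. Intensities before normalization overlapped, with 2138.6 in treated mouse 1 and 2646.1 in 25-week control 1.

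Mog, a glycoprotein of the outermost myelin surface, had 2 probes that tracked each other closely. Probe ILMN_1259536 read 9.69, 9.37, 9.58 and 9.34 in treated mice, 9.58 and 9.67 in 25-month controls, and 9.55, 9.50, 9.48 and 9.49 in 25-week controls. Probe ILMN_2615034 read 9.21, 8.88, 9.18 and 8.87 in treated mice, 9.15 and 9.19 in 25-month controls, and 9.13, 9.07, 9.15 and 9.03 in 25-week controls. In both, treated mice 1 and 3 were near the 25-month controls and treated mice 2 and 4 were below every other array. The age differences were 0.12 ± 0.11 and 0.08 ± 0.11, and only for the first did the 2 control groups not overlap.

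Cnp, an enzyme bound to the membrane of uncompacted myelin, differed from the rest in where the treated mice lay. Probe ILMN_2802263 read 10.10, 10.19, 10.42 and 10.36 in treated mice, 9.84 and 9.94 in 25-month controls, and 9.77, 9.86, 9.90 and 10.02 in 25-week controls. All 4 treated mice lay above all 6 controls, at 1.30 times the level of either control group. The differences were 0.38 ± 0.11 against 25-month and 0.38 ± 0.09 against 25-week controls, while the 2 control groups overlapped (0.0018 ± 0.11). This separation did not hold in the intensities before normalization. There treated mouse 1 (987.1) fell among the controls, which reached 1317.2 in 25-week control 4. Probe ILMN_1257097 read 7.81, 7.98, 8.08 and 8.15 in treated mice, 7.70 and 7.90 in 25-month controls, and 7.75, 8.01, 7.71 and 7.58 in 25-week controls. Its treated mice averaged higher by 0.21 ± 0.13 and 0.24 ± 0.11, but overlapped both control groups.

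Counted together, all 11 myelin probes had a positive difference with age, from 0.0018 to 0.66 with a median of 0.12, and for 7 of them the 25-month controls lay wholly above the 25-week controls, as for 11.4% of all probes tested. The direction of both Cnp probes with age turned with median scaling, to -0.0099 for ILMN_1257097 and -0.056 for ILMN_2802263, so neither has a settled direction. For rapamycin against 25-month controls 3 were positive and 8 negative, with 2 wholly above (11.1% of all probes) and 1 wholly below (9.15%), and with median scaling Mbp ILMN_3011353 moved from the negative to the positive ones. For rapamycin against 25-week controls 8 were positive and 3 negative, with 5 wholly above (4.58%). Over all 15 member probes, groups did not overlap for 9 with age, against 23.1% of all probes tested, for 3 with rapamycin against 25-month controls, against 20.3%, and for 6 with rapamycin against 25-week controls, against 7.84%. Of them 1 was called with age, Mobp ILMN_3024681 (0.85% of all probes were called, 0.719% upward). None was called for rapamycin against 25-month controls (0.0276%), and 2 were called for rapamycin against 25-week controls, Mobp ILMN_3024681 upward and Gpr17 downward (1.09%, of which 0.905% upward and 0.187% downward). The calls changed when single arrays were left out. The age call was lost without either 25-month control or without 25-week control 1, 3 or 4 (0 member probes called in each case), and Gpr17 joined it without rapamycin mouse 2 (2 called). For rapamycin against 25-week controls, 0 were called without 25-week control 1 or without rapamycin mouse 3 or 4, 1 was called without either 25-month control or without 25-week control 2, 3 or 4, and without rapamycin mouse 1 the 2 calls were both upward, so that Gpr17 was not among them. The separations counted here are of normalised signals. Since these contrasts chose the genes, the shares are given only for scale.

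**Figure D2:**
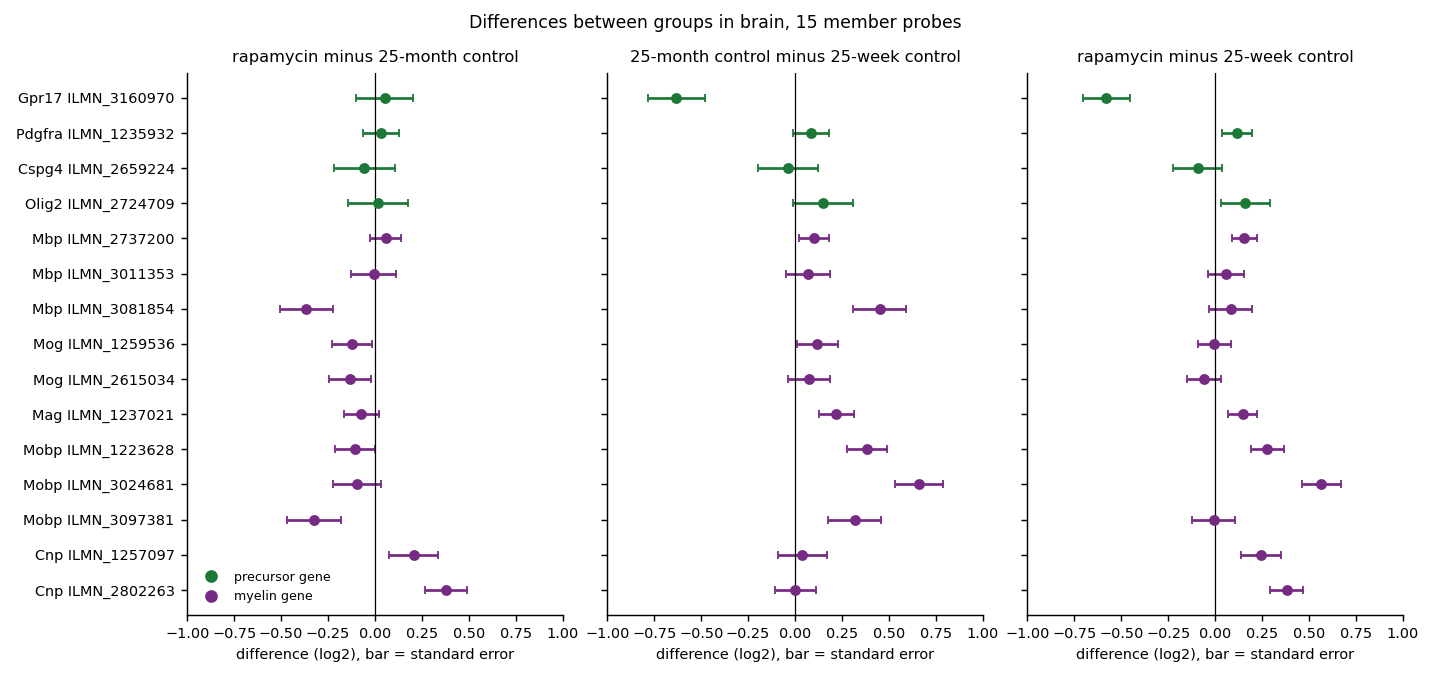
Log2 difference of each member probe with its standard error in brain, in 3 panels for rapamycin minus 25-month controls, 25-month minus 25-week controls and rapamycin minus 25-week controls. With age, the points of all 11 myelin probes lie at or right of 0 (both Cnp probes turn below 0 with median scaling) and that of Gpr17 at -0.63. Cnp probe ILMN_2802263 lies at 0.38 in both panels that hold the treated mice.

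The precursor and myelin genes also varied among the treated mice. Rapamycin mice 1 and 3 had the lower Gpr17 signals of the group (6.85 and 6.88) together with its higher signals of both Mog probes and of Mobp ILMN_3097381, and mice 2 and 4 had the higher Gpr17 signals (7.44 and 7.20) with the lower ones of those probes. Deviations from the group means over the 10 brain arrays correlated at r = -0.78 and -0.75 between Gpr17 and the 2 Mog probes, 0.65 between Gpr17 and Pdgfra, and 0.93 between the 2 Mog probes. Across the other myelin probes the r with Gpr17 ranged from -0.62 (Mobp ILMN_3097381) to 0.64 (Mbp ILMN_2737200). It was also positive for Mbp ILMN_3011353 (0.55) and Cnp ILMN_1257097 (0.18), so the myelin probes did not share 1 direction. These values describe 10 arrays, whose probes share the RNA extract and hybridization of each mouse.

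**Figure D3:**
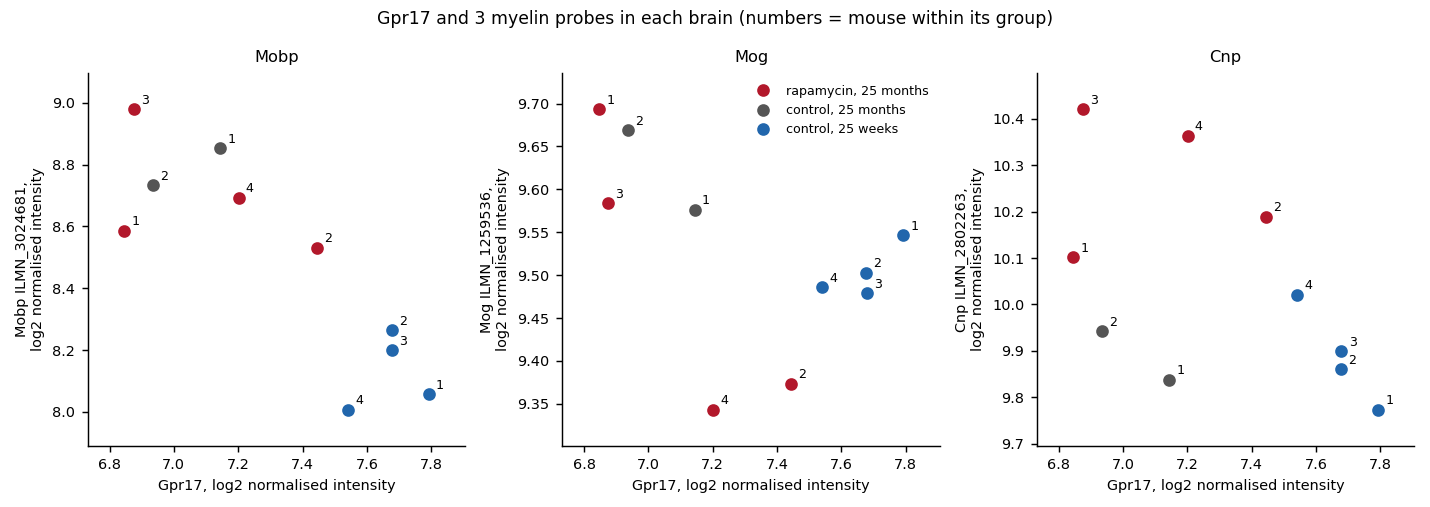
Log2 signal of Gpr17 against that of Mobp ILMN_3024681, Mog ILMN_1259536 and Cnp ILMN_2802263 in brain, 1 point per mouse and 1 panel per myelin probe. The 25-week controls sit apart at high Gpr17 and low Mobp, the treated mice spread over Gpr17 from 6.85 to 7.44, and all 4 treated mice sit above the others for Cnp.

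Over the 10 brain arrays, the genes whose signal was most like that of Gpr17 were Exd2 (r = 0.96), Acot8 (0.96), Msc (0.94), Gpx8 (0.92) and Insyn1 (0.92), and after removal of the group means the same 5 had r of 0.86, 0.82, 0.78, 0.75 and 0.77. Those most like Mog were Arpc5 (0.94), Mobp (0.93), Marchf10 (0.91), Ikbip (0.90) and Eef2 (0.90), with r of 0.94, 0.94, 0.94, 0.91 and 0.92 after removal of the group means. Among these 10, Mobp was itself a member. The genes were picked for the highest r among all 14473 brain probes tested, and both sets of r come from the same arrays. High values therefore follow in part from the choice.

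The rest of the lineage was read from 8 lists of 111 genes, chosen with earlier results of these data known, of which 92 were on the array and 76 were tested. With age, 3 of the 76 rose and 1 fell by limma's test (0.719% and 0.131% of all probes), and 20 had an unadjusted p under 0.05. For rapamycin against 25-month controls 0 were called, with 9 at an unadjusted p under 0.05 and a smallest adjusted p of 0.384. For rapamycin against 25-week controls 3 rose and 0 fell, with 20 at an unadjusted p under 0.05. Of all 14473 brain probes tested, 1827, 1422 and 1853 had an unadjusted limma p under 0.05 in these contrasts, in the order given.

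The 3 listed genes called upward with age came from the lists of myelin proteins and of other mature oligodendrocyte genes. Earlier results were known when the lists were made, so this only describes them. With age, 10 of the 15 myelin and paranode genes were positive and 5 negative. Of the 17 other mature genes 15 were positive and 2 negative, and of the 8 lipid enzymes 3 were positive and 5 negative. Apod, a lipid-binding lipocalin of myelinating glia, read 12.04, 12.02, 12.35 and 12.06 in treated mice, 12.48 and 12.39 in 25-month controls, and 11.63, 11.69, 11.62 and 11.38 in 25-week controls. It rose by 0.86 ± 0.12 in 25-month against 25-week controls (limma, adjusted p = 0.00401) and by 0.54 ± 0.10 in treated mice against 25-week controls (limma, adjusted p = 0.0168), with all 4 treated mice below both 25-month controls. The age call was lost without 25-month control 1 (adjusted p = 0.0892) and the rapamycin call without rapamycin mouse 3 (0.053). Hapln2, a link protein of the matrix at nodes of Ranvier, read 8.03, 8.30, 8.59 and 8.36 in treated mice, 8.36 and 8.53 in 25-month controls, and 7.86, 7.85, 7.57 and 7.59 in 25-week controls. It rose by 0.73 ± 0.14 with age (limma, adjusted p = 0.0296) and by 0.60 ± 0.12 in treated mice against 25-week controls (limma, adjusted p = 0.0272), and both older groups lay wholly above the 25-week controls. The age call was lost without either 25-month control (adjusted p = 0.178 and 0.25) or without 25-week control 2, 3 or 4 (0.0549, 0.0828 and 0.0869). The other was lost without 25-week control 2, 3 or 4 (0.0518, 0.0937 and 0.0648) or without rapamycin mouse 2, 3 or 4 (0.067, 0.0892 and 0.0807). With no detection filter both Hapln2 calls were lost (adjusted p = 0.0718 and 0.0609).

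Pmp22, a tetraspan protein best known from peripheral myelin, rose by 0.49 ± 0.09 with age (limma, adjusted p = 0.0185), with 8.44, 8.43, 8.50 and 8.40 in treated mice, 8.55 and 8.68 in 25-month controls, and 8.18, 8.17, 8.08 and 8.08 in 25-week controls. All older arrays were above all 25-week arrays, and treated mice differed from 25-week controls by 0.32 ± 0.07 (limma, adjusted p = 0.0505). A second Pmp22 probe, ILMN_2661299, rose by 0.67 ± 0.13 with age and by 0.52 in treated mice against 25-week controls (limma, adjusted p = 0.0293 and 0.0371). The age call of the first was lost without 25-month control 1 or 2 (adjusted p = 0.117 and 0.19) or 25-week control 3 (0.0529), with median scaling (0.183) and in a fit to the 2 compared groups alone (0.0584). Il33, a nuclear alarmin made by mature oligodendrocytes, rose by 0.47 ± 0.08 in treated mice against 25-week controls (limma, adjusted p = 0.0173), with 9.26, 9.03, 9.11 and 8.95 in treated mice, 8.90 and 9.01 in 25-month controls, and 8.64, 8.59, 8.71 and 8.53 in 25-week controls. That call was lost without 25-week control 2 (adjusted p = 0.0626) or rapamycin mouse 3 (0.0665). The only gene that fell was Zfp536, a zinc-finger repressor in the transcription factor list, by -0.54 ± 0.11 with age (limma, adjusted p = 0.0298). It read 5.80, 5.84, 5.58 and 5.76 in treated mice, 5.41 and 5.50 in 25-month controls, and 5.82, 6.01, 6.12 and 6.05 in 25-week controls. The treated mice thus lay wholly above the 25-month controls, by 0.29 ± 0.11 (limma, adjusted p = 0.442). Its age call was lost without 25-month control 1 or 2 (adjusted p = 0.327 and 0.142), 25-week control 2, 3 or 4 (0.0743, 0.0828 and 0.0771) or rapamycin mouse 4 (0.052), and in a fit to the 2 compared groups alone (0.0672). Without background correction the difference was -0.19 and not called (adjusted p = 0.082).

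By list, the 7 tested precursor genes beside the members had median differences of 0.05 for rapamycin against 25-month controls, -0.08 with age and -0.07 for rapamycin against 25-week controls. Matn4, a matrix protein enriched in precursors, differed by 0.03, 0.29 and 0.32 and Emid1 by -0.23, 0.14 and -0.09 in the same order of contrasts, and neither was called. These were the 2 positive genes of the list with age, and the other 5 were negative. Emid1 was close to background, being detected on 1 of 4 treated, 2 of 2 25-month control and 1 of 4 25-week control arrays. The 10 genes of committed and newly formed oligodendrocytes, the stage that Gpr17 marks, had medians of -0.03, -0.01 and -0.04. With age 5 of them were positive and 5 negative. Bcas1, a marker of newly forming oligodendrocytes, read 12.84, 12.93, 12.84 and 12.76 in treated mice, 12.62 and 12.78 in 25-month controls, and 12.50, 12.63, 12.39 and 12.47 in 25-week controls, so treated mice were above the 25-week controls by 0.35 ± 0.08 (limma, adjusted p = 0.0554). Its direction with age, 0.21 ± 0.10, was the opposite of that of Gpr17. Itpr2, a calcium channel of the same stage, differed by 0.31 ± 0.10 with age (limma, adjusted p = 0.197). The 4 transcription factors had medians of 0.19, -0.07 and 0.07.

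The 15 further myelin and paranode genes had medians of -0.04 for rapamycin against 25-month controls, 0.08 with age and 0.11 for rapamycin against 25-week controls. The 17 other genes of mature oligodendrocytes had -0.06, 0.22 and 0.22. The 8 enzymes of myelin lipids had -0.08, -0.01 and -0.03. With age 3 of them were positive and 5 negative, from -0.23 to 0.33. The 2 named by smallest p both rose: the ceramide synthase Cers2 differed by 0.28 ± 0.10 with age (limma, adjusted p = 0.234) and the fatty acid elongase Elovl1 by 0.33 ± 0.14 (0.352). Cers2 probes ILMN_2893999 and ILMN_2893992 differed by 0.32 ± 0.12 and 0.06 ± 0.10 with age. The 14 ligands, receptors and pathway genes, of which 8 were positive and 6 negative with age, had -0.02, 0.02 and -0.09. Among them Lingo1, a receptor component that restrains myelination, differed by -0.34 ± 0.09 with age (limma, adjusted p = 0.127) and the Wnt inhibitor Apcdd1 by -0.36 ± 0.11 (0.165). Of the cycling-cell list only Birc5, a mitotic regulator, was tested, with 0.35 ± 0.13, -0.20 ± 0.13 and 0.15 ± 0.10.

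**Figure D4:**
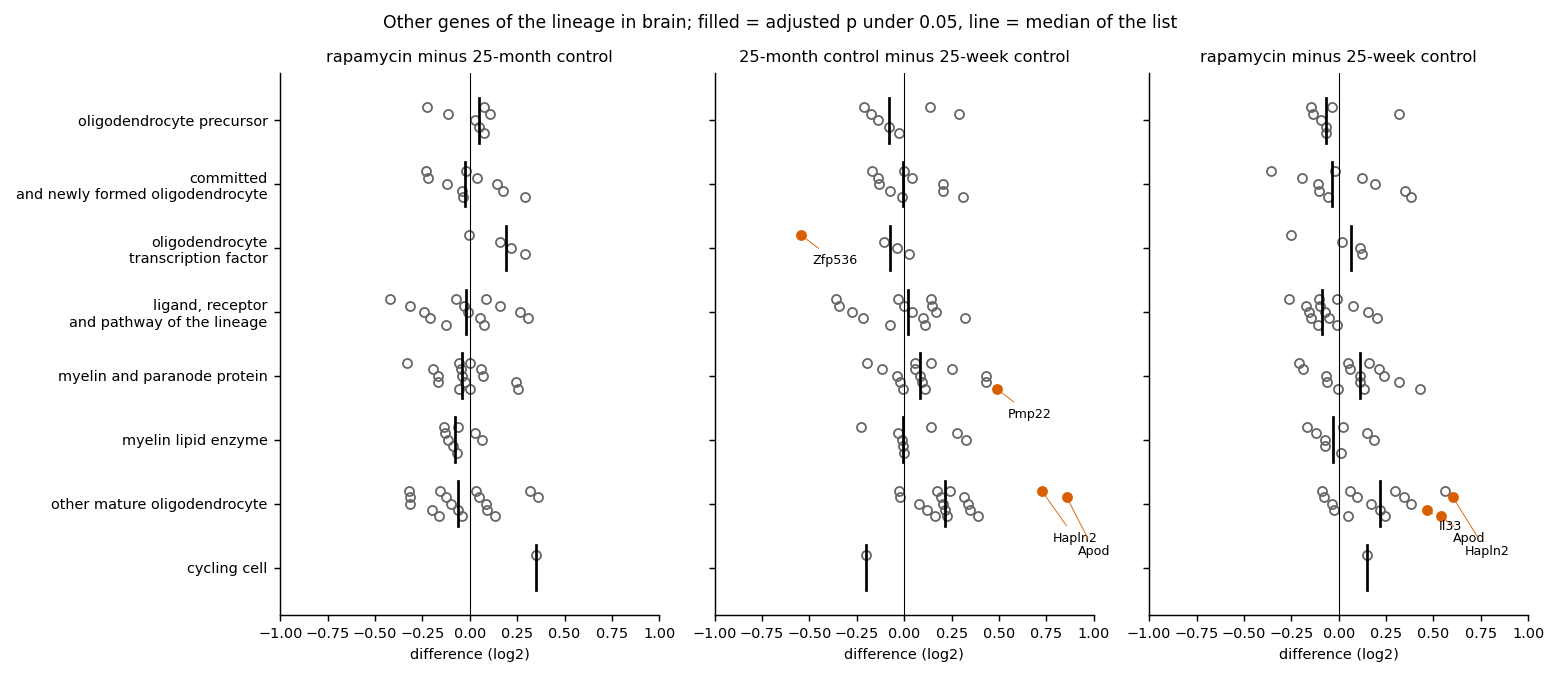
Log2 differences in brain of the 76 tested lineage genes that are not members, grouped by list, in 3 panels for rapamycin minus 25-month controls, 25-month minus 25-week controls and rapamycin minus 25-week controls. Filled points passed an adjusted p of 0.05: Apod, Hapln2 and Pmp22 upward and Zfp536 downward with age, and Apod, Il33 and Hapln2 upward for rapamycin against 25-week controls.

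Markers of other cells moved with some of these differences, and their part in them was not tested. The summed linear signal of 6 microglia genes was 721 to 793 in treated mice, 739 to 805 in 25-month controls and 522 to 608 in 25-week controls, and 2 of the 6 rose with age, C1qa by 0.70 ± 0.13 and Trem2 by 0.80 ± 0.10 (limma, adjusted p = 0.0255 and 0.00149). The 4 endothelial genes summed to 1552 to 1922 in treated mice, 1492 to 2085 in 25-month controls and 1364 to 1520 in 25-week controls, so that every treated mouse was above every 25-week control. The 8 astrocyte genes summed to 18605 to 19495 in treated mice, 18907 to 19437 in 25-month controls and 18497 to 19249 in 25-week controls, and 1 of them, Gfap, rose. The 5 choroid plexus genes summed to 7982 to 10017 in treated mice, 11424 to 13847 in 25-month controls and 8595 to 12140 in 25-week controls, so they were lower in every treated mouse than in either 25-month control, as was Mbp ILMN_3081854. The 5 cerebellar genes summed to 3285 to 3930 in treated mice, 3965 to 4601 in 25-month controls and 3400 to 4651 in 25-week controls. Every treated mouse was thus below both 25-month controls here too. The 6 neuron genes summed to 11859 to 14325 in treated mice, 11697 to 12560 in 25-month controls and 11761 to 13533 in 25-week controls.

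The members were then compared between brain, kidney and heart in the 25-week controls, to describe how far each probe is a brain signal on these arrays. Of the 14 member probes tested, 12 were higher in brain than in kidney and 1 was lower (limma; 75.5% of all probes differed, 36.7% higher and 38.8% lower), and 12 were higher in brain than in heart and 2 lower (74.7%, with 34.9% higher and 39.8% lower). Olig2 was not tested. Gpr17, both Mog probes and all 3 Mobp probes passed the detection filter through their brain arrays alone. For them the filter favoured a higher signal in brain, so these counts only describe the members. Mbp ILMN_2737200 was 8.07 ± 0.10 higher in brain than in heart, and Cnp ILMN_2802263 was 4.39 higher in brain than in kidney and 4.07 higher than in heart, with both probes above background on all 4 arrays of those tissues. Other probes of these genes were less specific to brain. Mbp ILMN_3011353 was 1.76 higher in brain than in kidney and 1.99 higher than in heart, and Cnp ILMN_1257097 was 1.675 and 1.70 higher. Mbp ILMN_2737200 was above background on only 1 of 4 kidney arrays, and Mag on 1 of 4 kidney and 2 of 4 heart arrays, so no size is given for those differences. For Gpr17, both Mog probes and all 3 Mobp probes no array of kidney or heart was above background, so only bounds apply: Gpr17 was at least 5.49-fold higher in brain than in kidney and at least 5.38-fold higher than in heart, and the Mog and Mobp bounds lay between 7.54-fold and 33.5-fold. Mbp ILMN_3081854 was likewise at least 80.05-fold higher in brain than in kidney. Pdgfra and Cspg4 went the other way: Pdgfra was lower in brain than in kidney by -0.28 ± 0.09 (limma, adjusted p = 0.0126) and than in heart by -0.82 ± 0.09 (3.44e-06), and Cspg4 was lower than in heart by -0.44 ± 0.11 (0.00297) and not called against kidney (-0.11, adjusted p = 0.377). Both genes are also made outside the oligodendrocyte lineage, and both were above background on all 4 arrays of kidney and of heart.

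**Figure D5:**
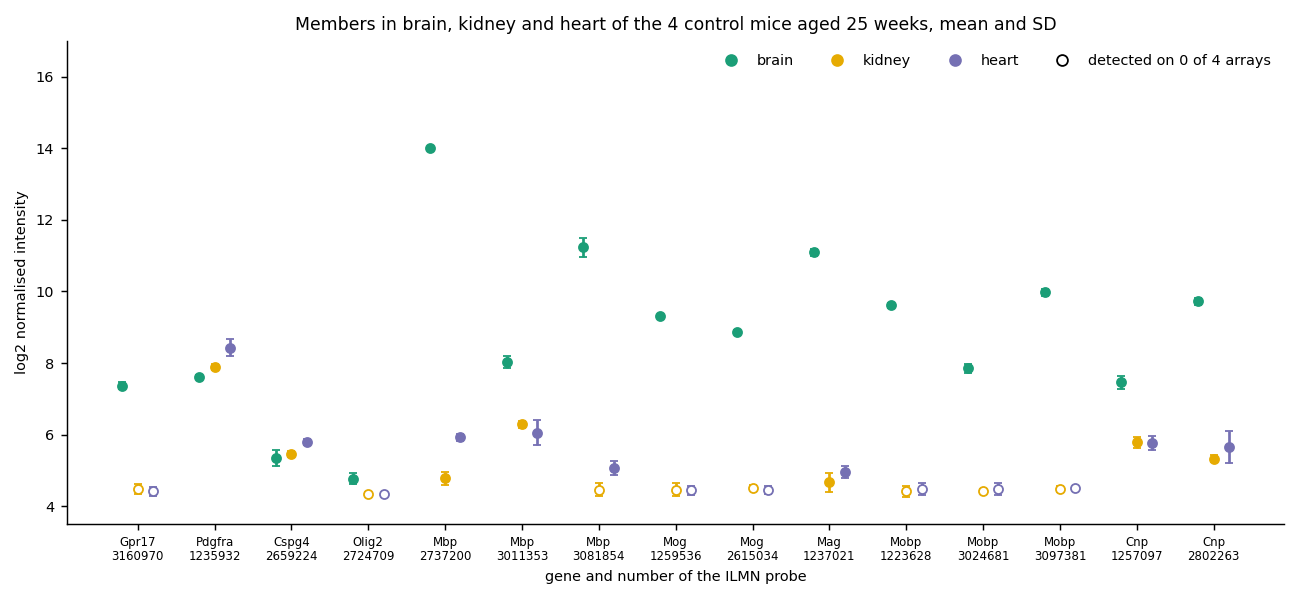
Mean log2 signal of each member probe with its SD over the 4 control mice aged 25 weeks in brain, kidney and heart, after joint normalization. Open symbols mark a probe detected on 0 of the 4 arrays of that tissue, which holds for Gpr17, Olig2, Mog and Mobp in both kidney and heart and for Mbp ILMN_3081854 in kidney.

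In kidney, 7 member probes were tested for the effects of rapamycin and age, and 0 were called by limma in any of the 3 contrasts. Of all probes, 0%, 0.0942% and 0.369% were called for rapamycin against 25-month controls, age, and rapamycin against 25-week controls. In that order 0, 0 and 3 member probes had an unadjusted p under 0.05, as did 418, 875 and 1819 of all 13805 kidney probes tested. In heart, 8 were tested and 0 called (0%, 0.624% and 0.944%), with 1, 1 and 0 at an unadjusted p under 0.05. The same held for 1598, 1724 and 2462 of all 13773 heart probes tested. Heart Mbp ILMN_2737200 read 5.85, 5.77, 5.49 and 5.99 in treated mice, 6.13 and 6.29 in 25-month controls, and 5.74, 5.63, 5.68 and 5.85 in 25-week controls. The hearts of the 2 controls of 25 months were the highest, by 0.48 ± 0.14 over 25-week controls (limma, adjusted p = 0.159), with treated mice at -0.44 ± 0.14 against them (0.332).

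Omission of rapamycin mouse 2 from the kidney fit added calls for 3 member probes. Pdgfra read 8.33, 9.67, 8.39 and 8.37 in treated mice, 8.10 and 8.11 in 25-month controls, and 7.96, 7.83, 7.80 and 8.002 in 25-week controls, and without mouse 2 it was 0.46 ± 0.09 higher in treated mice than in 25-week controls (limma, adjusted p = 0.0114). Mbp ILMN_3011353 read 6.83, 7.99, 6.66 and 6.62 in treated mice, 6.95 and 7.01 in 25-month controls, and 6.18, 6.12, 6.33 and 6.30 in 25-week controls. Without mouse 2 it was 0.76 ± 0.11 higher with age (limma, adjusted p = 0.00369) and 0.48 ± 0.10 higher in treated mice than in 25-week controls (0.0144). Cnp ILMN_2802263 read 5.51, 6.63, 6.14 and 6.06 in treated mice, 5.76 and 5.53 in 25-month controls, and 5.30, 5.29, 5.15 and 5.36 in 25-week controls, and differed by 0.65 ± 0.15 between treated mice and 25-week controls (limma, adjusted p = 0.0235). For all 3 probes, every older kidney was above every 25-week kidney. The probes were picked by their calls, and the share of all kidney probes separated in this way was not counted, so this only describes them. Other probes of Cnp and Mbp were not called without mouse 2. Cnp ILMN_1257097 went the other way, at -0.20 ± 0.11 for rapamycin against 25-week controls. Mbp ILMN_2737200, above background on 4 of these 9 arrays, differed by 0.03 ± 0.14 with age and 0.13 ± 0.13 for rapamycin against 25-week controls. On these 9 arrays 9.63% of all kidney probes were called with age, 8.47% for rapamycin against 25-week controls and 0% for rapamycin against 25-month controls. The difference between the kidney and heart effects, over all 10 mice, was called for 0 of 8 member probes in each contrast (limma; 0%, 0.265% and 0.6% of all probes), with smallest adjusted p of 0.61, 0.493 and 0.149.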

How the data were processed

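RNA from brain, kidney and heart of 10 mice was extracted with Trizol and RNeasy and labelled with the Ambion MessageAmp kit, per the labels' protocols. Mouse identifiers in the labels mark the replicates as separate animals. The submitters' processing notes name GenomeStudio 2011.1. The deposited non-normalized table held, per the file headers, 1 probe signal intensity per array on a linear scale and a detection p-value against negative control beads. A second matrix deposited by the authors held background-subtracted intensity, and its normalization is not given in the sources used here. Gene symbols came from the platform annotation.

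Intensities were corrected with normexp (noise estimated through the detection p-values, offset 16), quantile-normalised within each tissue and put on the log2 scale (neqc, limma 3.58.1, R 4.3.3, tables read with the package data.table, release 1.17.8). Tested probes had a detection p-value below 0.05 on 2 or more of 10 arrays. The limma model gave each group its own mean and used every array of a tissue, so the 2 older controls share the spread of the other groups, and p-values were adjusted by Benjamini-Hochberg over all tested probes. Tissues were compared in the 4 mice aged 25 weeks, with mouse as a term, after joint normalization. The kidney and heart effects were compared over the arrays of both tissues. Where a probe was above background on no array of a tissue, a fold is a lower bound: the mean of the bright tissue against, per array of the dim tissue, the higher of the lowest signal among detected probes and the probe's own signal. In bulk arrays there is no counting depth, and the number of arrays limits the precision.

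The members and gene lists were chosen with earlier results of these data known. From each list the text names up to 4 genes called in a brain contrast by smallest p, or else the 2 with the smallest p. Genes like Gpr17 and Mog are the 5 with the highest Pearson r. A listed gene with several probes is represented by its brightest in brain. Alternatives were no background correction, median scaling, the authors' matrix, no or stricter detection filters (p under 0.01 on at least 4 arrays), a variance trend with robust moderation, a fit to only the groups compared, a block for the replicate number, and leaving out each array. A BeadChip block was not run for want of chip identifiers in the files used here. The fit was also tested on simulated data.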

Additional observations from a re-analysis of the deposited data

Results flagged for a closer look

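In 7 of the 60 groups of 4 arrays examined for the member probes, 1 array stood apart from the other 3 by Dixon's criterion, where chance sets apart about 1 in 20 groups. In brain both cases were Mbp ILMN_2737200, whose values are nearly fixed by rank: rapamycin mouse 2 read 14.0665 with the other 3 at 13.99, and 25-week control 1 read 13.9056 with the other 3 at 13.84. In kidney all 3 cases were rapamycin mouse 2, the array that stands apart from the other kidneys: Pdgfra read 9.6651 with the others from 8.33 to 8.39, Mbp ILMN_3011353 read 7.9921 with the others from 6.62 to 6.83, and Cnp ILMN_1257097 read 7.1005 with the others from 5.43 to 5.65. In heart, Cnp ILMN_1257097 read 5.3703 in rapamycin mouse 4, below the others at 5.68 to 5.74, and Cspg4 read 5.7013 in 25-week control 4, above the others at 5.56.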

How the results depend on the processing

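No called difference changed sign under any alternative. Small differences that were not called did: with median scaling those of both Cnp probes with age (-0.0099 and -0.056) and of Mbp ILMN_3011353 for rapamycin against 25-month controls (0.037), and more of them when single arrays were left out. Without background correction, 0 brain probes were called for rapamycin against 25-month controls (4 in the report's setting) and 6 lineage genes rose for rapamycin against 25-week controls (3). Median scaling gave 20 probes for rapamycin against 25-month controls (10 higher, 10 lower), 2 member probes with age (1 higher, 1 lower) and 1 member probe in kidney for rapamycin against 25-week controls. The authors' matrix, the stricter filter and robust moderation each gave 6 lineage genes for rapamycin against 25-week controls. No filter left 2 probes for rapamycin against 25-month controls, 0 member probes with age and 1 for rapamycin against 25-week controls, and the stricter filter 0 probes for rapamycin against 25-month controls. Robust moderation gave 188 probes with age (134 higher, 54 lower; 123 in the report's setting) and 3 member probes (2 higher, 1 lower). The compared groups alone gave 2 lineage genes and 2 member probes with age, and 1 member probe for rapamycin against 25-week controls. Bcas1, not called for rapamycin against 25-week controls in the report's setting, was called without background correction (limma, adjusted p = 0.0109), in the authors' matrix (0.0225), with the stricter filter (0.0379) and with robust moderation (0.00176). The first Pmp22 probe gained that call in the same settings (limma, adjusted p = 0.0109, 0.0436, 0.0329 and 0.0245) and with no filter (0.025). Lingo1 was called with age without background correction (limma, adjusted p = 0.0463). The cause of these shifts was not tested.

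Replicate numbers did not pair the samples: 8 same-numbered pairs had correlations of -0.17 to 0.15, 2 of them over 0.1. With the replicate block, 72 brain probes (67 higher, 5 lower), 1 lineage gene and 0 member probes were called with age, 2 probes for rapamycin against 25-month controls, and 1 member probe for rapamycin against 25-week controls. With the block the age differences of Zfp536, Pmp22 and Hapln2 had adjusted p of 0.134, 0.113 and 0.115, and that of Hapln2 for rapamycin against 25-week controls 0.0699. For rapamycin against 25-month controls the block turned the small differences of Cspg4 (0.0073), Olig2 (-0.11), Mbp ILMN_3011353 and Matn4 (-0.026).

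Leaving out 1 array at a time, brain probes called ranged from 23 to 133 with age, 0 to 21 for rapamycin against 25-month controls and 62 to 440 for rapamycin against 25-week controls. Lineage genes ranged from 0 to 4 with age and 0 to 7 for rapamycin against 25-week controls, member probes from 0 to 2 in both, and in kidney from 0 to 1 and 0 to 3. The precursor median with age ranged from -0.15 to 0.12. The Gpr17 difference with age stayed between -0.74 and -0.53, that of Mobp ILMN_3024681 between 0.60 and 0.72, and that of Cnp ILMN_2802263 for rapamycin against 25-month controls between 0.33 and 0.43. With 2 controls of 25 months, precision is lowest for contrasts that use them.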
